A study of Homo sapiens with 4 samples.

Results

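The 10 genes described here, ANGPTL4, CIDEC, CIDEB, PLIN2, PLIN3, PLIN5, PNPLA2, LIPE, LPIN1 and LPIN2, encode proteins that coat lipid droplets, release or store their fat, or block lipases outside the cell. They were taken by gene symbol from the 34608 genes of the deposited count files, with earlier results of these data known, and they account for 56 of the 119207 transcript models counted. RNA was sequenced from A549, an established cell line from a human lung adenocarcinoma, after 3 h with 100 nM dexamethasone, a drug that binds and activates the glucocorticoid receptor, or after 3 h with 0.02% ethanol as vehicle. Each group, called dex and etoh here, had 2 libraries, and nothing in the labels says that they came from separate cultures, so p-values here measure the spread between these libraries alone, and that spread may be technical. The series concerns the sites that the glucocorticoid receptor binds in the genome. Comparing dex with etoh asks which of these transcripts differed in abundance after the hormone.

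Cells keep surplus fatty acids as triglyceride in lipid droplets, which are wrapped in perilipins (PLIN proteins) and enlarged by fusion with the help of CIDE proteins. Stored triglyceride is taken apart by PNPLA2 and then LIPE, while lipins make the diacylglycerol from which triglyceride is built. Outside the cell, ANGPTL4 blocks lipoprotein lipase, the enzyme that frees fatty acids from circulating lipoproteins. Glucocorticoids are known to act on fat storage and release in adipose tissue and liver, and A549 cells are of neither kind.

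ANGPTL4 and CIDEC are the genes that the results below turn on, and the sequence before an annotated start of each is shown so that both can be read side by side. Both are RefSeq promoters of the build GRCh38.p14, printed 5′ to 3′ on the strand of the gene and ending at the base before the start: ANGPTL4 on the plus strand at chr19:8363905-8364154 and CIDEC on the minus strand at chr3:9880254-9880503. Capitals mark a TATAAA run, which begins 29 bases before the ANGPTL4 start.
ANGPTL4: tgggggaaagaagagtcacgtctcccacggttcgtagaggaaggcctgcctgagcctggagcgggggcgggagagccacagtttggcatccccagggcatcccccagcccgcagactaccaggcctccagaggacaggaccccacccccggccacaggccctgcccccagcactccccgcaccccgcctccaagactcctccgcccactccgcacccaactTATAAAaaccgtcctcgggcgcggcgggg
CIDEC: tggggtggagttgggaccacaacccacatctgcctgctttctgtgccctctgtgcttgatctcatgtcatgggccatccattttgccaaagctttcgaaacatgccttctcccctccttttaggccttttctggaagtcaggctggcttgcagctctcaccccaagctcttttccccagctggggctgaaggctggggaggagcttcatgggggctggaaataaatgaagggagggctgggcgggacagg
All 10 genes matched the promoter table, with 16 promoters among them. Motifs of nuclear receptors were searched on both strands in the 250 bases before each start: the full glucocorticoid response element (AGAACA and TGTTCT with 3 free bases between them), its looser core (GNACA and TGTNC with 3 free bases between them, which every full element also holds) and the PPAR element (AGGTCA repeated with 1 free base between the copies). They were in 0 of the 16. Of all 35116 promoters of the table, the element itself was in 0.00285%, the core in 0.327% and the PPAR element in 0.0171%, so these motifs are rare in windows of this length. AGAACA alone, on either strand, was in 1 of the 16 promoters and in 12.4% of all promoters. That 1 lies before a second CIDEC start, at chr3:9878813-9879062, and is not the CIDEC promoter printed above. The annotated start of the transcript models CIDEC-001 and CIDEC-002, at 9879056 (GENCODE 29), falls inside that window, and the AGAACA lies just past it. Nearly all of the sequence before that start was therefore outside the search. TATAAA on the strand of the gene was in 1 of the 16, the ANGPTL4 promoter printed above, and in 6.80% of all. These matches describe the letters in a short window and say nothing of binding, and both AGAACA alone and TATAAA were added after the other motifs had been searched.

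Between 9764159 and 11887526 reads per library were aligned to named transcripts, so that 1 read is worth between 0.0841 and 0.102 reads per 1000000 aligned (CPM), and a count of 0 allows up to 3 reads. Reads without molecular identifiers are not independent molecules, so intervals and floors cover counting error only. No pair held the same library, since the chi-square of gene counts per degree of freedom was 5.81 between the dex libraries, 7.60 between the etoh libraries and at least 16.7 across groups. The epithelial markers KRT8, KRT18, KRT7, EPCAM and CDH1 were all detected and summed to between 7345 and 8506 CPM in dex and between 4229 and 4903 CPM in etoh. KRT8 rose by 1.03, KRT18 by 0.68 and KRT7 by 0.66 on the log2 scale. EPCAM at -0.22 and CDH1 at 0.15 were not called, so the list did not rise as a whole. The part of these markers in the results below was not tested. Of 6 adipocyte markers, FABP4, LPL and CIDEA were at 0 in every library, and with ADIPOQ, LEP and PLIN1 the list summed to between 0.305 and 0.628 CPM in dex and between 0.512 and 1.01 CPM in etoh. The hepatocyte markers ALB, APOA1 and CYP3A4 summed to at most 0.305 CPM in dex and 0.505 CPM in etoh, with APOA1 at 0. Of the fibroblast markers COL1A2 was at 0 and PDGFRB at no more than 0.252 CPM, whereas COL1A1 rose by 0.56 on the log2 scale, and the 3 summed to between 16.8 and 21.4 CPM in dex and between 10.5 and 15.7 CPM in etoh. PTPRC had 1 read in all, CD68 lay between 3.28 and 4.07 CPM, and the endothelial CDH5 was at most 0.509 CPM.

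ANGPTL4 and CIDEC rose steeply in dex, and none of the other 8 genes passed the test in either direction. The other 8 summed to nearly the same level in every library, although single genes among them lay higher or lower in dex. ANGPTL4 rose from 3.73 ± 1.51 to 77.0 ± 2.84 CPM and CIDEC from 2.41 ± 0.0725 to 41.4 ± 4.33 CPM (mean ± SD, n = 2 libraries). Counts were compared with edgeR's quasi-likelihood test over all 14777 genes with enough reads, with Benjamini-Hochberg adjustment and a threshold of 0.05 on the adjusted p. Across all genes tested, 6.98% were higher and 4.42% lower in dex by this rule, and 11.4% were called in all. Of the 10 genes described here 9 could be tested, 2 were higher and 0 lower. Unadjusted p-values were below 0.05 for 4 genes in the higher and 1 in the lower direction, against 12.8% and 10.7% of all genes tested, and DESeq2 and limma-voom also called 2 higher and 0 lower. The median log2 fold change of the 9 was 0.19, against 0.00 over all genes tested, and their median absolute log2 fold change was 0.34, against 0.19. Libraries of the 2 groups did not overlap for 6 of the 10 genes, 5 higher and 1 lower in dex, and they did not overlap for 53.3% of all genes tested.

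**Figure D1:**
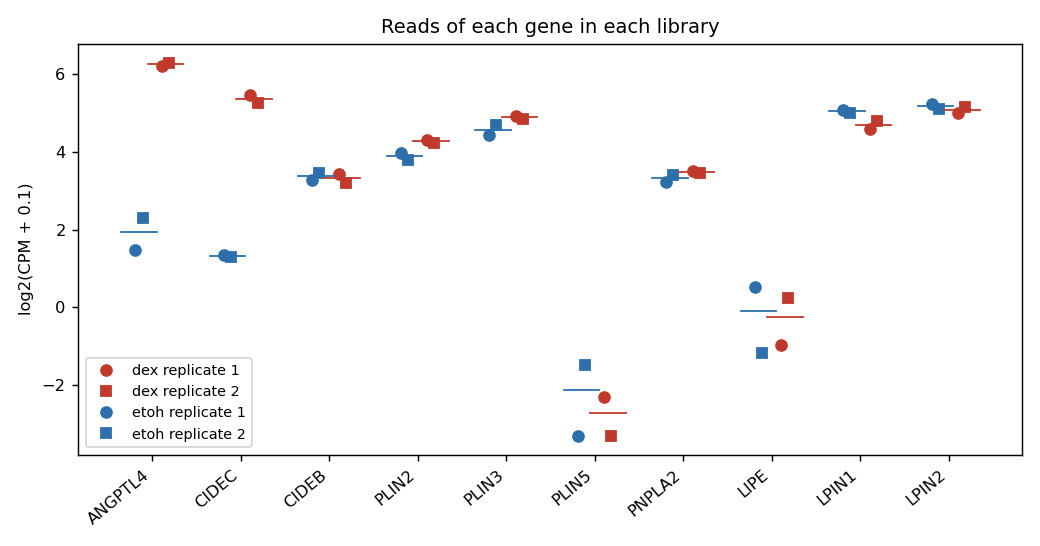
Each gene's reads in each of the 4 libraries as log2(CPM + 0.1), with dex in red, etoh in blue, circles for replicate 1, squares for replicate 2 and a short line at the log2 of the group mean. ANGPTL4 and CIDEC lie far higher in both dex libraries, LIPE and PLIN5 lie near the bottom in all, and the groups sit close together for the other genes.

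ANGPTL4 lies on chromosome 19 from 8363289 to 8374373 on the plus strand (GRCh38, GENCODE 29). The build behind the deposited files was not given in the sources used here, and all positions are annotation only. Its 737 and 880 reads in dex replicates 1 and 2 gave 75.0 and 79.0 CPM, and its 26 and 57 reads in etoh replicates 1 and 2 gave 2.66 and 4.79 CPM. Both dex libraries lay far above both etoh libraries, and the etoh libraries differed from each other more, relative to their level, than the dex libraries did. The log2 fold change was 4.35 (SE 0.17), a 20.4-fold increase with an edgeR adjusted p of 6.0e-14. Without etoh replicate 2 it was 4.86 and without etoh replicate 1 it was 4.04, so the size rests in part on the few vehicle reads. ANGPTL4 ranked 15th of all genes tested by increase and 7th by p-value. In RNA from whole cultures, more cells with a transcript and more transcript per cell cannot be told apart.

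CIDEC, which brings droplets into contact so that they fuse and grow, lies on chromosome 3 from 9866711 to 9880254 on the minus strand. CIDEC had 437 and 427 reads with dex, or 44.5 and 38.3 CPM, and 24 and 28 with etoh, or 2.46 and 2.36 CPM. Vehicle libraries agreed closely, and the lower dex library was still far above them. Its log2 fold change was 4.12 (SE 0.19), a 17.4-fold increase with an edgeR adjusted p of 6.9e-13, and CIDEC ranked 16th by increase and 12th by p-value. Leaving out each library in turn moved the log2 fold change between 4.01 and 4.23. An antisense gene, AC112484.1 in GENCODE 29, shares 1.14% of the distinct 50-base windows of CIDEC and had 12, 9, 4 and 5 reads in dex replicates 1 and 2 and etoh replicates 1 and 2, far fewer than CIDEC had in dex.

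CIDEB, the relative of CIDEC that is best known from lipoprotein assembly in liver, lies on chromosome 14 from 24305096 to 24311430 on the minus strand. CIDEB stood at 10.8 and 9.07 CPM in dex and at 9.52 and 10.9 CPM in etoh, and the groups overlapped. Its log2 fold change was -0.03 (SE 0.19), with an approximate 95% interval from -0.42 to 0.36, and the adjusted p was 0.94 by edgeR. Whether CIDEB and CIDEC differed in their response was not tested. These CIDEB values carry a limit: protein-coding transcripts of NOP9, on the opposite strand, share 51.0% of the 50-base windows of CIDEB, and those of LTB4R2, also opposite, share 35.0%. Whether the counting used strand was not given in the sources used here, so the reads of these genes cannot be told apart, and NOP9 stood at between 42.6 and 44.8 CPM in every library.

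Of the perilipins, PLIN2, the coat protein of droplets in most cell types, stood at 19.6 and 18.9 CPM in dex and at 15.7 and 13.8 CPM in etoh. PLIN3, which moves from the cytosol onto newly formed droplets, stood at 30.2 and 28.9 CPM in dex and at 21.5 and 25.7 CPM in etoh. For both genes the dex libraries lay above the etoh libraries, by a margin that did not pass the test. The log2 fold change of PLIN2 was 0.41 (SE 0.15, 95% interval 0.08 to 0.73), with an unadjusted p of 0.016 and an adjusted p of 0.10 by edgeR. That of PLIN3 was 0.34 (SE 0.14, 95% interval 0.05 to 0.62), with an adjusted p of 0.12 by edgeR. The antisense gene AC027319.1 shares 13.6% of the windows of PLIN3, and with the transcripts of PLIN3 that share over 10% of their windows left out, the log2 fold change fell to 0.10 with an adjusted p of 0.83 by edgeR.

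PLIN5, which ties droplets to mitochondria in muscle and other tissues that burn fat, was at the edge of detection. PLIN5 had 1 read and 0 reads with dex and 0 and 3 reads with etoh, and it was too low to be tested. The ratio of dex to etoh over the summed reads was 0.349, with an exact conditional binomial 95% interval from 0.00664 to 4.34. No difference was thus detectable at this depth. A gene on the same strand, AC011498.4, shares 19.8% of the 50-base windows of PLIN5. It had 2, 3, 0 and 3 reads in dex replicates 1 and 2 and etoh replicates 1 and 2. Reads in the shared sequence cannot be told apart. PLIN5 and PLIN3 are neighbours on chromosome 19, where PLIN5 lies from 4522531 to 4535224 and PLIN3 from 4838341 to 4867768, with 303116 bases between them. ANGPTL4 and LIPE lie on the same chromosome, which thus holds 4 of the 10 genes.

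Among the enzymes that empty droplets, PNPLA2, the triglyceride lipase that acts before LIPE, stood at 11.4 and 11.0 CPM in dex and at 9.22 and 10.6 CPM in etoh. Both dex libraries were higher, but the difference did not pass the test: the log2 fold change was 0.19 (SE 0.18, 95% interval -0.19 to 0.56, adjusted p = 0.59 by edgeR). LIPE, the hormone-sensitive lipase, had only 4 and 12 reads in dex and 13 and 4 in etoh, or 0.407, 1.08, 1.33 and 0.336 CPM. The groups overlapped, and the libraries of 1 group differed as widely as those of different groups. Its log2 fold change was -0.04 (SE 0.62), and the 95% interval ran from -1.34 to 1.25, so that a doubling or a halving could not have been told from no change. LIPE-AS1, an antisense RNA gene over LIPE that shares 6.75% of its windows, did rise, from 5.12 and 4.04 CPM in etoh to 12.0 and 9.34 CPM in dex (1.24 on the log2 scale with an SE of 0.23, and an edgeR adjusted p of 4.9e-04), and was chosen for mention after its values were seen.

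The lipins turn phosphatidate into diacylglycerol, and neither passed the test. LPIN1 stood at 23.9 and 27.6 CPM in dex and at 34.0 and 32.2 CPM in etoh. Both dex libraries lay below both etoh libraries. The log2 fold change of LPIN1 was -0.34 (SE 0.13, 95% interval -0.61 to -0.07), with an unadjusted p of 0.016 and an adjusted p of 0.10 by edgeR, so it was not called. LPIN2 stood at 32.3 and 35.6 CPM in dex and at 38.0 and 34.7 CPM in etoh, with overlapping groups. Its log2 fold change was -0.08 (SE 0.12, 95% interval -0.34 to 0.18, adjusted p = 0.77 by edgeR). LPIN1 lies on chromosome 2 from 11677595 to 11827409, LPIN2 on chromosome 18 from 2916994 to 3013315, PNPLA2 on chromosome 11 from 818902 to 825573, PLIN2 on chromosome 9 from 19108375 to 19149290 and LIPE on chromosome 19 from 42401507 to 42427426.

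**Figure D2:**
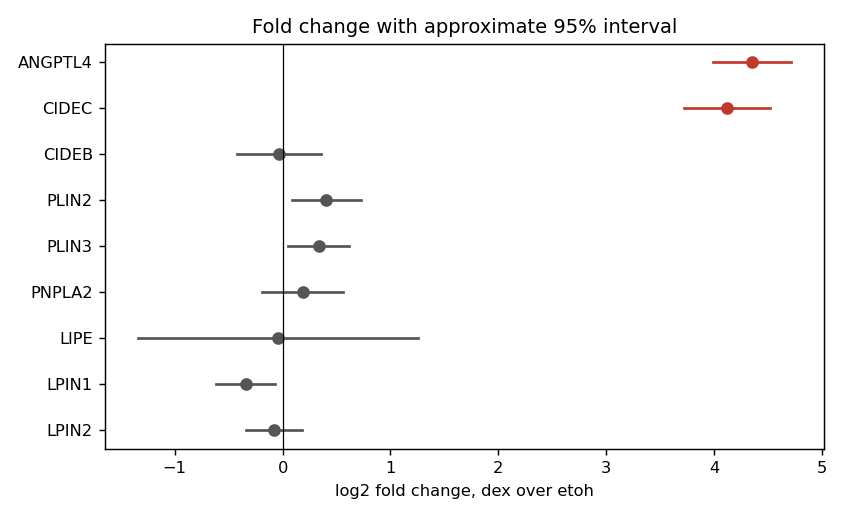
Log2 fold change of dex over etoh for the 9 tested genes, with points for the edgeR estimate, bars for the approximate 95% interval and red for genes that passed an adjusted p of 0.05. ANGPTL4 at 4.35 and CIDEC at 4.12 stand apart from the other 7, whose estimates lie between -0.34 and 0.41.

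Levels were set against each other per length, as CPM divided by the length of the transcript model in kilobases (RPKM), summed over the models of a gene. In etoh the order began with PLIN3 at 14.9 ± 1.48 RPKM, then PLIN2 at 8.90 ± 0.462, LPIN1 at 8.86 ± 0.541 and LPIN2 at 7.46 ± 0.736 RPKM (SD, n = 2). CIDEB at 5.03 ± 0.695, PNPLA2 at 4.08 ± 0.402, ANGPTL4 at 2.72 ± 0.966 and CIDEC at 2.34 ± 0.0393 RPKM followed, and LIPE at 0.632 ± 0.509 and PLIN5 at 0.0511 ± 0.0722 RPKM closed it. The libraries of neighbours in this order overlapped for PLIN2 and LPIN1 and for ANGPTL4 and CIDEC. In dex, ANGPTL4 at 51.1 ± 1.76 RPKM and CIDEC at 39.5 ± 3.81 RPKM led, ahead of PLIN3 at 18.2 ± 0.0589 and PLIN2 at 11.8 ± 0.497 RPKM. LPIN2 at 7.17 ± 0.0449 now preceded LPIN1 at 6.60 ± 0.511, before CIDEB at 5.46 ± 0.958, PNPLA2 at 4.60 ± 0.129, LIPE at 0.494 ± 0.292 and PLIN5 at 0.0267 ± 0.0378 RPKM. ANGPTL4 and CIDEC thus moved from 7th and 8th place to the top, and no neighbours in the dex order had overlapping libraries. The level and place of CIDEB in both orders carry the limit given above, since NOP9 and LTB4R2 share much of its sequence.

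As a share of all reads on the 10 genes, ANGPTL4 and CIDEC made up 3.81% and 5.27% in the etoh libraries and 48.1% and 47.0% in the dex libraries. The 10 genes together summed to 134 and 136 CPM in etoh and to 248 and 249 CPM in dex. The other 8 genes summed to 129 CPM in each etoh library and to 129 and 132 CPM in dex. Within these 8, PLIN2, PLIN3 and PNPLA2 had higher means in dex and the others lower ones, so shifts in opposite directions offset each other. The CIDEB reads in this sum carry the limit given above. Nearly the whole difference in the sum of the 10 genes thus lay in ANGPTL4 and CIDEC.

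The files count reads per transcript model, and how reads in sequence that several models of a gene share were placed was not given in the sources used here, so values of single models are uncertain. Of the 56 models 32 had enough reads for edgeR's test over 49857 transcripts, and 12 were higher and 0 lower in dex. Unadjusted p-values were below 0.05 for 15 higher and 2 lower models, against 9.77% and 7.63% of all transcripts tested. Over all transcripts tested 5.64% were called, 3.57% higher and 2.07% lower. The 12 were 7 of the 9 models of ANGPTL4 and 5 of the 6 models of CIDEC, and the other 3 were too low to be tested. All 12 had 10 or more reads in both dex libraries and 0 of the 12 had them in both etoh libraries, so these models entered the test through the group where they were high, and nothing is read from how many of them were called. For ANGPTL4 the log2 fold changes ranged from 3.15, for ANGPTL4-007 with 2 reads in each etoh library, to 5.18, for ANGPTL4-003. The model with the most dex reads was ANGPTL4-009, with 168 and 174 reads in dex and 4 and 15 in etoh. The CIDEC models ranged from 3.41, for CIDEC-006, to 5.03, for CIDEC-201, which had 1 read in each etoh library. CIDEC-002 had 115 and 106 reads in dex against 4 and 8 in etoh, and CIDEC-003 had 110 and 109 against 5 and 4. Each of these 2 models led in 1 dex library.

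**Figure D3:**
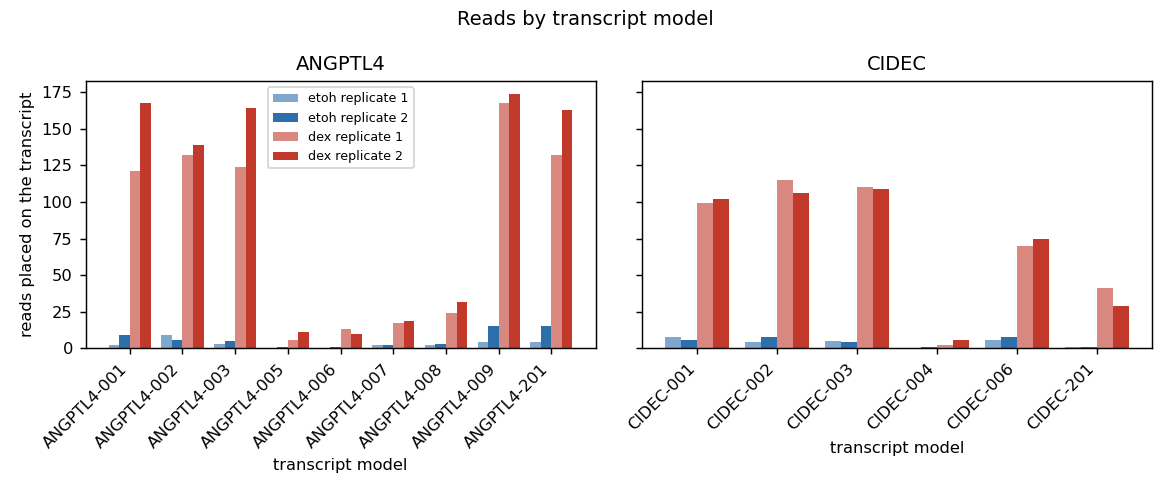
Reads placed on each transcript model of ANGPTL4 (left) and CIDEC (right) in each library, with etoh in blue, dex in red and the lighter shade for replicate 1. Dex bars exceed etoh bars in every model. ANGPTL4-009 carries the most ANGPTL4 reads in both dex libraries, while CIDEC-002 leads CIDEC in dex replicate 1 and CIDEC-003 in dex replicate 2.

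CIDEC models are annotated with more than 1 start: CIDEC-003 begins at position 9880251, CIDEC-001 and CIDEC-002 at 9879056, CIDEC-201 at 9878812 and CIDEC-006 at 9878511 (GENCODE 29). CIDEC-003, which begins next to the promoter printed above, held 25.2% and 25.5% of the CIDEC reads in dex and 20.8% and 14.3% in etoh, from 5 and 4 reads. CIDEC-001 held 22.7% and 23.9% in dex and 33.3% and 21.4% in etoh. CIDEC-002 held 26.3% and 24.8% in dex and 16.7% and 28.6% in etoh. Most CIDEC reads were thus counted on models that do not begin beside the printed promoter. ANGPTL4-001, ANGPTL4-002, ANGPTL4-003 and ANGPTL4-009 begin between 8364151 and 8364169, beside the printed ANGPTL4 promoter. ANGPTL4-005, ANGPTL4-006 and ANGPTL4-007 begin upstream of the printed sequence, between 8363289 and 8363411, and ANGPTL4-008 begins at 8364398. ANGPTL4-201, with 17.9% and 18.5% of the ANGPTL4 reads in dex, is not in GENCODE 29, so its start was not placed. Whether the models of a gene differed in their response was tested with edgeR's diffSpliceDGE, which called 0 of 9721 genes (0.00%), with 435 at an unadjusted p below 0.05. For ANGPTL4 the unadjusted p was 0.28, for CIDEC 0.21 and for LPIN1 0.21, each with an adjusted p of 1.00, so no difference between models was detectable. Among the LPIN1 models, LPIN1-001 held the most reads, 114 and 156 in dex and 143 and 180 in etoh, and the 6 tested models ranged from -1.25 to -0.01 with none called.

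Other genes of the same pathways were taken from 4 lists chosen by function, 60 genes in all, of which 37 had enough reads to be tested. Of these 3 were higher and 0 lower in dex, against 6.98% higher and 4.42% lower over all genes, and unadjusted p-values were below 0.05 for 7 higher genes and 0 lower ones, against 12.8% and 10.7% of all genes tested. DESeq2 called 2 higher and 0 lower, and limma-voom called 3 higher and 0 lower. The median log2 fold change of the 37 was 0.11. Their changes were small beside those of ANGPTL4 and CIDEC. The 3 genes called by edgeR include METTL7A, whose call carries a limit given below.

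Of 11 tested genes of triglyceride synthesis 1 was higher. AGPAT9, now named GPAT3, attaches the acyl chain that starts a glycerolipid, and rose by 0.56 on the log2 scale (SE 0.11), with 49.9 ± 4.12 CPM in etoh and 72.7 ± 1.64 CPM in dex and an edgeR adjusted p of 0.0012. The median of the list was 0.18. Of 10 tested lipolysis genes 1 was higher: ABHD12, a lipase of lysophospholipids and monoacylglycerols, rose by 0.49 on the log2 scale (SE 0.11), with 39.9 ± 1.45 CPM in etoh and 55.4 ± 4.74 CPM in dex and an edgeR adjusted p of 0.0054. Without dex replicate 2 ABHD12 was at 0.41 and did not pass (adjusted p = 0.052). The median of that list was -0.02.

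Of 15 extracellular lipases and their partners only 3 could be tested and 0 passed, also with DESeq2 and limma-voom. SEL1L, which helps lipoprotein lipase leave the endoplasmic reticulum, was at -0.14 (SE 0.10), and the lipase maturation factor LMF2 at 0.32 (SE 0.17). LPL itself, the lipase that ANGPTL4 blocks, had 0 reads in every library, which allows up to 0.307 CPM in the shallowest. Of 13 tested droplet formation genes 1 was higher: METTL7A, a droplet-associated protein of the methyltransferase family, stood at 1.04 ± 0.406 CPM in etoh and 2.54 ± 0.292 CPM in dex, a rise of 1.32 on the log2 scale (SE 0.40) with an edgeR adjusted p of 0.035. METTL7A did not pass with DESeq2 (adjusted p = 0.27), or without dex replicate 1, dex replicate 2 or etoh replicate 2, at 1.20, 1.44 and 0.93. METTL7A had 27 and 26 reads in dex and 13 and 9 in etoh. Of the etoh libraries only replicate 1 reached the filter's minimum count of 10. METTL7A thus entered the test through dex, where it was high, and nothing is read from its being counted as called. The median of the droplet formation list was 0.06.

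**Figure D4:**
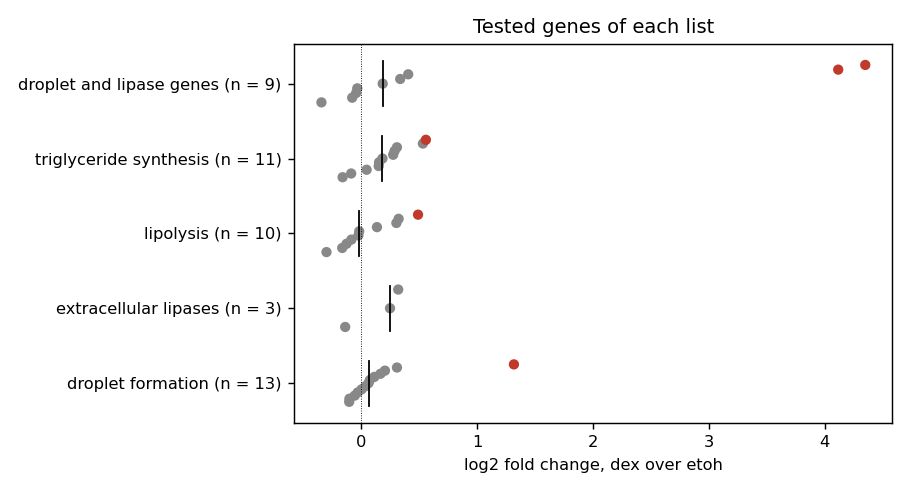
Log2 fold change of dex over etoh for every tested gene of the 10 and of the 4 related lists, with red points for genes that passed an adjusted p of 0.05 and a black line at each median. ANGPTL4 and CIDEC lie above 4, and METTL7A at 1.32 is the only other gene above 1.

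The genes whose 4 library values ran most like those of ANGPTL4 and CIDEC were found by Euclidean distance between log2 CPM values centred on each gene's mean, over 4 libraries and 12936 genes whose mean reached 1 CPM. For ANGPTL4 they were CDKN1C at a distance of 0.30, STAC2 at 0.35 and EDN3 at 0.42. For CIDEC they were TFCP2L1 at 0.20, NSG1 at 0.22 and PER1 at 0.25. CDKN1C went from a mean of 0.397 to 9.33 CPM and TFCP2L1 from 15.1 to 226 CPM, so likeness here is in the ratio and not in the level. STAC2, EDN3 and NSG1 had etoh means of 0.355, 0.397 and 0.229 CPM. These genes and CDKN1C thus reached the mean of 1 CPM through dex alone. The log2 fold changes of the matches lay between 3.87 and 4.75. With 2 libraries per group the distance mostly follows the size of the rise, and nothing further is read from it.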

How the data were processed

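The tools named, per the submitters' processing notes, are Bowtie, CASAVA, SAMtools and DESeq2, without versions or roles. The deposited files hold raw read counts per transcript model, 1 file per library, with model lengths. Aligner settings, annotation release and strand were not given in the sources used here. The row of unaligned reads, 17.2% to 18.7% of all reads, entered neither library sizes nor tests.

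Counts were summed over all models of a gene identifier. CPM used all aligned reads. Tests used edgeR 4.0.16 in R 4.3.3: filterByExpr with a minimum count of 10, TMM factors, quasi-likelihood test, two-sided, Benjamini-Hochberg over all genes or transcripts tested. The SE is the absolute log2 fold change over the square root of F, and intervals built on it are approximate. Where a group had 3 reads or fewer, a ratio of summed counts is given with its 95% interval from the exact conditional binomial distribution. The code was tested on simulated data. Sequence sharing was counted in 50-base windows of GENCODE 29 transcripts, on either strand.

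The genes and lists were chosen with earlier results of these data known. All 10 genes are named, with up to 4 called genes of each related list by smallest p-value, or the 2 with the highest mean where none passed, and the 3 closest genes by likeness. Alternatives were other normalization factors, filters, DESeq2 1.42.0, limma-voom (limma 3.58.1), the replicate block, the largest transcript per gene and removal of each library. Leaving out transcripts that share over 10% of their windows with another gene was added after the data were seen.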

Additional observations from a re-analysis of the deposited data

How the results depend on the processing

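ANGPTL4 and CIDEC stayed higher and past the threshold, with log2 fold changes from 4.04 to 4.86 and from 4.01 to 4.26, and 2 of the 10 genes were higher and 0 lower, under every alternative run but 1. That 1 left out every transcript with any shared window, was tried before the 10% limit and kept 1 CIDEC model with too few reads to test. The replicate numbers do not pair the libraries in the labels, and same-numbered libraries deviated with a correlation of -0.09. With the replicate block 1558 genes were called instead of 1684, with 974 higher and 584 lower, and 2 of the 10 genes were higher. DESeq2 called 1040 genes, 653 higher and 387 lower. Without each library in turn between 1111 and 1965 genes were called, 705 to 1159 higher and 406 to 806 lower, with the fewest without etoh replicate 1, and 418 lower without dex replicate 1. Signs changed only among genes that never passed: CIDEB was at 0.076 with its largest transcript and between -0.16 and 0.10 without each library in turn. LIPE was at 0.11 with limma-voom and between -0.92 and 1.18 without each library in turn, and LPIN2 between -0.15 and 0.0048. The cause was not tested. Depth limits LIPE and PLIN5, and a group of 2 libraries limits all.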
